A study of Mus musculus with 8 samples.

Results

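The Slco genes encode organic anion transporting polypeptides (Oatp), and 5 of them, Slco1a1, Slco1a4, Slco1b2, Slco2b1 and Slco3a1, were followed here in mouse liver. They were found by the updated gene symbol of each probe, and 6 of 39556 probes read them: 2 for Slco2b1 and 1 for each of the others. They are 5 of 19896 named genes, and 5 of the 15 Slco genes with a probe. Each value is the log2 ratio of 1 mouse's liver RNA to pooled liver RNA of 5 wild-type animals, measured on 2-colour arrays. The 5 wild-type mice are numbered 14, 15, 21, 22 and 26, and the 3 littermates labelled as Me1 knockouts 27, 31 and 33. Me1, listed under its older symbol Mod1, encodes cytosolic malic enzyme, which makes pyruvate and NADPH from malate. Sex, age, strain, diet and the altered part of Me1 were not stated in the labels. A ratio to a pool gives no level, so transcript levels cannot be ordered between genes.

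Oatps bring large amphipathic anions into cells without sodium. At the blood-facing membrane of hepatocytes they take up bile acids, steroid conjugates, thyroid hormones, bilirubin and many drugs, ahead of metabolism and export into bile. In mice Slco1a1 is a classic male-predominant liver gene, maintained by androgens through the pattern of growth hormone release, and Slco1a4 is inducible through the xenobiotic receptor PXR.

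Slco1b2, Slco1a4 and Slco1a1 follow one another among the measured genes of chromosome 6. Their start regions are shown because these neighbours differed from one another in how much their transcripts varied between mice. Each window runs from 250 bases before to 50 bases after a RefSeq transcript start in GRCm38.p6, in the direction of transcription. Capitals mark matches, on either strand, to TATAAA (the TATA box), TTCNNNGAA (bound by STAT5), GTTAAT (part of an HNF1 site) and AGGTCA (the nuclear receptor core).
Slco1a1: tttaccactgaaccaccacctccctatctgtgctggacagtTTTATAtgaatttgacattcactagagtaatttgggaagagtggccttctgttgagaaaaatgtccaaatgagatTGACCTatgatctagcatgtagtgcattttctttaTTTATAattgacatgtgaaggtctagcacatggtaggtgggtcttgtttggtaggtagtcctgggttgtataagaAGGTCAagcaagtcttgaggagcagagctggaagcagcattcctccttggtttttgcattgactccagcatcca
Slco1a4: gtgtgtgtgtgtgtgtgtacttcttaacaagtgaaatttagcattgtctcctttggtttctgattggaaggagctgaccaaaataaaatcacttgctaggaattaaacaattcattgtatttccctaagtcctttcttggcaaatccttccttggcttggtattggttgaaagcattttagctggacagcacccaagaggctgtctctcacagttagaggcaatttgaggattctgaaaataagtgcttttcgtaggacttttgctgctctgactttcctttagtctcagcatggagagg
Slco1b2: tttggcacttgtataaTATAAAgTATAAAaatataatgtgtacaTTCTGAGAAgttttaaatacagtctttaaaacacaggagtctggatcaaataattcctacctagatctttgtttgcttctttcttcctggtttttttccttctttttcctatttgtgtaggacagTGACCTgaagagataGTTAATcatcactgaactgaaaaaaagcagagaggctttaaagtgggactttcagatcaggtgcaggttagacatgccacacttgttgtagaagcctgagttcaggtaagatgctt
The windows lie at chr6:141946913-141947212 (minus strand), chr6:141856171-141856470 (minus strand) and chr6:141629268-141629567 (plus strand) for Slco1a1, Slco1a4 and Slco1b2. The Slco1a1 window held AGGTCA with its leftmost base at -24 and, on the opposite strand, at -134, and TATAAA on the opposite strand at -99 and -209. The Slco1b2 window held GTTAAT at -66, AGGTCA on the opposite strand at -81, TTCNNNGAA at -206 and TATAAA at -227 and -234. None of the 4 motifs was in the Slco1a4 window. Of 32851 windows of the same length, 13.6% held TATAAA, 8.30% TTCNNNGAA, 7.10% GTTAAT and 16.3% AGGTCA. The full HNF1 palindrome, which begins with GTTAAT, was in 3 of all windows and in none of these. No 2 matches shown overlap. Slco2b1 has 3 windows on chromosome 7, with TTCNNNGAA at 14 in one and -133 in another and none of the other motifs, and no window was matched for Slco3a1. A match describes the letters and not a bound site.

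The arrays set limits that touch every value below. The Me1 probe read 0.82, -0.64, -0.70, -1.73 and 0.70 in wild types 14, 15, 21, 22 and 26, then 0.82, -0.81 and -0.68 in knockouts 27, 31 and 33. It thus did not set the genotypes apart, and a probe outside the altered part checks nothing, so knockout and wild type below stand for the labels. The direction of the ratios is not stated with the values. Read as log10 of mouse over pool, the mean linear ratio over the 5 wild types should be near 1 if the pool represents them. It was 1.004 for Slco1a1, 1.001 for Slco1b2, 0.971 for Slco1a4, 0.996 for Slco2b1 and 0.989 for Slco3a1, and its median over the 300 most variable probes was 0.999, against 1.33 with the opposite sign. With 1 wild-type array turned at a time that median was 0.863 (mouse 22) to 1.24 (mouse 26). Read as log2 instead, with no array turned, the median was 0.968, against 1.06 with the opposite sign. Both lie near 1, so this check does not settle the log base, and every fold below depends on it. The pool holds no knockout RNA, so the knockout columns cannot be checked in that way, and the labels do not say how dye-swapped arrays were merged. Which way the knockout arrays run is thus not known, and the difference of each member and the median of each gene list are also given with knockout signs turned, while single genes of the lists are given as deposited unless a turned value is named. Of 28 pairs of arrays 3 correlated below -0.3 over all probes, 2 between wild types, both with mouse 22, and 1 between wild-type mouse 14 and knockout mouse 33. The labels do not say whether the pool holds these same 5 wild types. Ratios to a pool of the same mice tend to correlate negatively with one another, and the part of this was not tested. With the sign of mouse 22 alone turned the knockout minus wild-type difference was 2.78 for Slco1a1, -0.35 for Slco1b2, 0.038 for Slco2b1, -0.12 for Slco3a1 and -0.28 for Slco1a4, the 1 member whose sign it reversed. Turning all 8 arrays would reverse each difference and keep its p. The SD of all log2 ratios was widest in wild-type mouse 22 (0.291) and knockout mouse 33 (0.273) and lay between 0.127 and 0.215 in the others.

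Slco1a1, which encodes the bile acid and steroid conjugate carrier Oatp1a1, differed between single mice more than any other member. Its log2 ratio was -1.19, -1.11, 0.80, 1.18 and -3.08 in wild types 14, 15, 21, 22 and 26. It was 1.27, 1.24 and 2.38 in knockout mice 27, 31 and 33. Among the wild types mice 14, 15 and 26 lay below the pool and mice 21 and 22 above it, and all 3 knockouts were above every wild type. As linear ratios to the pool, mouse 26 stood at 0.119 and mouse 22 at 2.26, a span of 19.1-fold among wild-type littermates. Knockout mice stood at 2.41, 2.36 and 5.22 times the pool.

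The SD of Slco1a1 over the wild types, 1.72, ranked 6 among 19896 named genes, where the median SD was 0.109. That rank does not depend on the knockout arrays. The other members followed with wild-type SDs of 0.926 for Slco1a4, 0.344 for Slco1b2, 0.198 for Slco3a1 and 0.0469 for Slco2b1. The rank was 78 for Slco1a4 and 17613 for Slco2b1. Without wild-type mouse 22 the SD was 1.58 for Slco1a1, 0.352 for Slco1a4, 0.223 for Slco1b2, 0.228 for Slco3a1 and 0.0474 for Slco2b1. Slco1a1 thus had the largest SD of the members and Slco2b1 the smallest with and without that mouse. The place of Slco1b2 above Slco3a1 rested on that mouse.

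**Figure D1:**
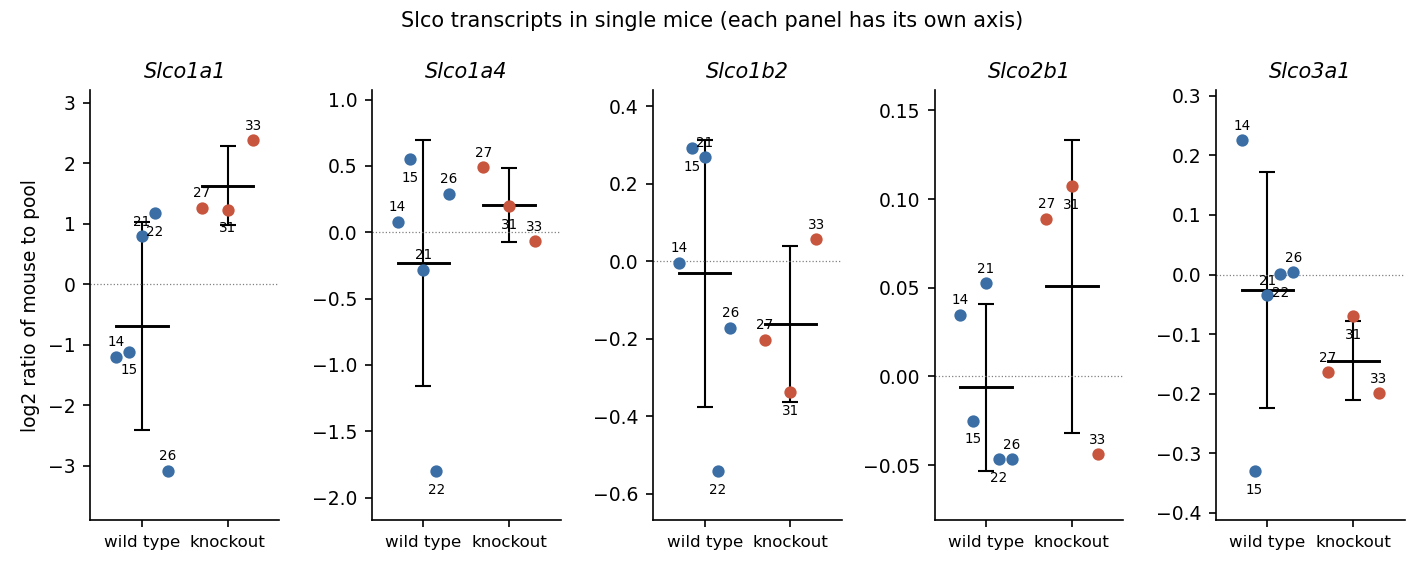
Log2 ratio of each mouse to the pool (y axis) for the 5 members, with wild-type mice in blue and knockout mice in red, numbered as in the labels; bars are the mean and SD of n = 5 wild-type and n = 3 knockout mice. The axes differ between panels: Slco1a1 runs from -3.08 to 2.38, Slco2b1 from -0.047 to 0.11, and the genotypes overlap in all panels but that of Slco1a1.

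Slco1a4 encodes Oatp1a4, a carrier of bile acids and digoxin that is also found at the blood-brain barrier. Its log2 ratio was 0.080, 0.55, -0.28, -1.80 and 0.29 in wild types 14, 15, 21, 22 and 26, then 0.49, 0.20 and -0.067 in knockouts 27, 31 and 33. Wild-type mouse 22 stood alone at 0.288 times the pool, and the other 7 mice lay between 0.823 and 1.46 times the pool. That mouse had a high Slco1a1 ratio and the array of widest spread.

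Slco1b2 encodes Oatp1b2, a hepatocyte carrier of unconjugated bile acids and bilirubin. It read -0.0037, 0.29, 0.27, -0.54 and -0.17 in wild types 14, 15, 21, 22 and 26, then -0.20, -0.34 and 0.058 in knockouts 27, 31 and 33. Mouse 22 was again the lowest, and the knockouts lay inside the wild-type range. In linear terms all 8 mice were within 0.688 to 1.22 times the pool.

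Slco3a1, a widely expressed carrier of prostaglandins and thyroid hormone, read 0.23, -0.33, -0.035, 0.00066 and 0.0040 in wild types 14, 15, 21, 22 and 26. It read -0.16, -0.070 and -0.20 in knockout mice 27, 31 and 33. The knockouts lay between wild-type mice 15 and 21. Slco2b1, a carrier of steroid sulphates found in many tissues, had a mean over its probes of 0.035, -0.025, 0.053, -0.047 and -0.047 in the same wild types and 0.089, 0.11 and -0.044 in the knockouts. Its 2 probes disagreed most in knockout mouse 33, at -0.16 and 0.070, so the differences between mice in this gene were of the size of the difference between probes.

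The comparison the design implies is that of knockout with wild type. For Slco1a1 the knockout mean was 1.63 ± 0.65 (SD, n = 3), against -0.68 ± 1.72 (SD, n = 5) for wild types. The difference of 2.31 ± 0.91 (SE of the limma fit) on the log2 scale is 4.96-fold, with a 95% confidence interval from 1.17-fold to 21.1-fold. It did not pass limma's test with Benjamini-Hochberg adjustment over 36169 features (adjusted p = 0.508, unadjusted 0.0340). Exact permutation of the labels (two-sided, 56 splits) gave p = 0.0357, and 0.0179 is the lowest value this design can reach. The genotypes were set apart by only 0.059 (log2), the gap between wild-type mouse 22 and knockout mouse 31. Under quantile normalization they overlapped, and with knockout signs turned the difference was -0.95 ± 0.91 (adjusted p = 0.676), also with overlap.

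The other members gave small or uncertain differences. Slco1a4 stood at 0.44 ± 0.48 (knockout minus wild type with SE, adjusted p = 0.787 in limma), with a 95% confidence interval from -0.68 to 1.55, so the interval spans differences in either direction. Without wild-type mouse 22 its difference was 0.046 ± 0.21. Slco1b2 stood at -0.13 ± 0.19 (interval -0.57 to 0.31), Slco3a1 at -0.12 ± 0.11 (-0.37 to 0.13) and Slco2b1 at 0.057 ± 0.052 (-0.061 to 0.18). The exact permutation p for these members was 0.589 for Slco1a4 and Slco1b2, 0.393 for Slco3a1 and 0.179 for Slco2b1. Turned, the differences were 0.026 for Slco1a4, 0.19 for Slco1b2, 0.17 for Slco3a1 and -0.044 for Slco2b1.

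Of the 5 members 0 passed adjusted p 0.05 in limma, beside 0.0276% of all features (0.0138% higher and 0.0138% lower), and 1 had an unadjusted p under 0.05, beside 9.28%. The genotypes did not overlap in 1 member, higher in the knockout, where 7.21% of all features did not overlap and 4.35% were higher without overlap. Of the members 3 were above and 2 below 0 with a median of 0.057, beside 49.9% of named genes above 0 and a median of -0.00029. With 5 members, 1 gene makes up these shares.

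**Figure D2:**
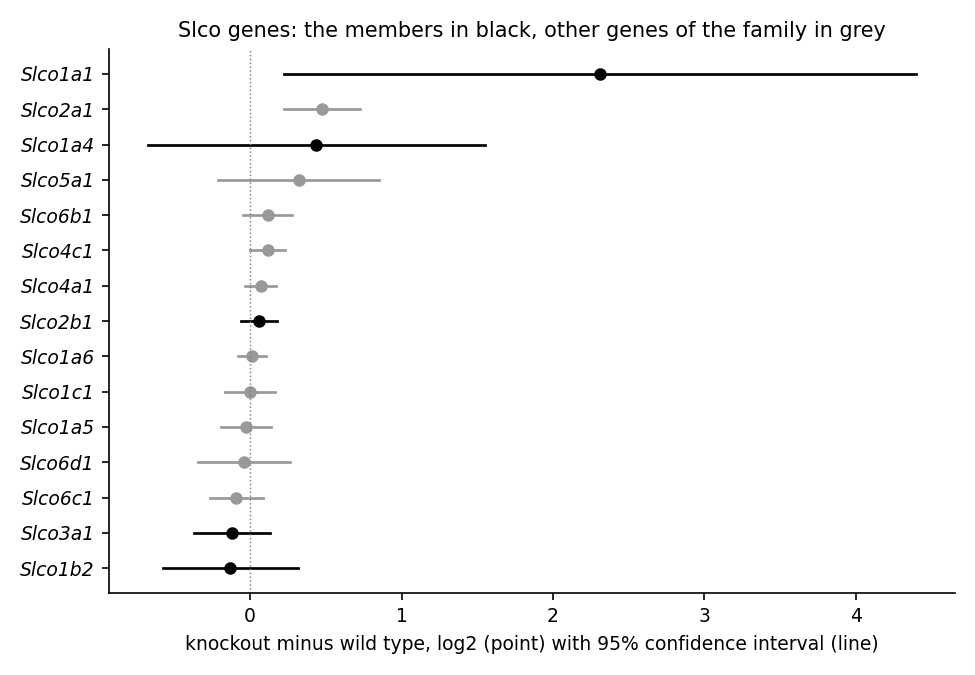
Log2 difference of knockout from wild type (x axis) for the 15 Slco genes with a probe, as a point with its 95% confidence interval from limma (n = 3 knockout and 5 wild-type mice), with the 5 members in black. The Slco1a1 interval runs from 0.22 to 4.40 and is the widest, and the intervals of the other 4 members cross 0.

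Joint movement of the members between mice was not shown, and n = 8 mice cannot exclude it. Over the 10 pairs of members, none passed after Benjamini-Hochberg adjustment over the 10 pairs (exact permutation of pairings, two-sided), and none had an unadjusted p under 0.05. Slco1a1 and Slco1a4 gave r = -0.331 (rho = -0.190, p = 0.421 and 0.665, adjusted p = 0.689 and 0.738) over n = 8 mice by exact permutation, and r = -0.277 without mice 14 and 26, the farthest from the Slco1a1 median. With knockout signs turned that r was -0.707 (p = 0.0449, adjusted p = 0.449, exact permutation), and with values centred within genotype it was -0.746. Slco1a4 and Slco1b2 gave r = 0.522 (rho = 0.238, p = 0.194 and 0.582 by exact permutation, adjusted p = 0.689 and 0.732), which was 0.134 without mice 21 and 22, -0.846 without mice 15 and 22 and -0.273 without mouse 22 alone. The positive r of that pair thus rested on mouse 22, the lowest in both genes.

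Among 1710 other named genes with an SD of at least 0.3, those closest to Slco1a1 over the 8 mice were Hsd3b5 (r = 0.971) and Hsd3b4 (r = 0.969), hydroxysteroid dehydrogenases of which Hsd3b5 is a male-specific gene of mouse liver. Hsd3b5 read -2.89, -2.25, 0.50, 1.61 and -4.03 in wild types 14, 15, 21, 22 and 26, then 0.41, 0.77 and 1.74 in knockouts 27, 31 and 33. Mice 14, 15 and 26 were again the low ones. Hsd3b4 and Hsd3b5 are close in sequence, so their probes may read both. The third, Cyp2c23 (r = 0.953), is a cytochrome P450 that epoxidises arachidonic acid.

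The most opposed genes were Slc22a5, the main plasma membrane carrier of carnitine (r = -0.992), and its neighbouring paralogue Slc22a21 (r = -0.991). Slc22a5 read 0.019, -0.0043, -0.40, -0.42 and 0.53 in wild types 14, 15, 21, 22 and 26, then -0.57, -0.53 and -0.90 in knockouts 27, 31 and 33. Its order over the 8 mice was the exact reverse of that of Slco1a1 (rho = -1). Without mice 14 and 26 r was 0.938 for Hsd3b5 and -0.975 for Slc22a5, over the wild types alone 0.970 and -0.992, and with knockout signs turned 0.860 and -0.860. These genes were picked as extremes of a search, so the values describe the mice and are not tested. Over all named genes 0.633% had r above 0.9 with Slco1a1 and 1.95% below -0.9. The 5 wild types alone held the pattern, but they were among the 8 mice searched, so this is not a separate observation. The collagen gene Col1a1, a stellate cell marker, ran against Slco1a1 too (r = -0.954 over 8 mice), at 0.29, -0.019, -0.85, -1.67 and 0.93 in the wild types and -1.75, -1.38 and -1.52 in the knockouts. The median of the 7 stellate markers gave r = -0.707 and that of 9 hepatocyte markers 0.712, and their part in the Slco1a1 pattern was not tested. The medians of the bile duct, endothelial, Kupffer and leukocyte markers gave -0.306, 0.149, 0.218 and 0.254. Within the hepatocyte list Ahsg gave r = 0.822, Apoa1 0.803, Serpina1a 0.773, Hpd 0.581 and Fgb 0.530. Tat gave 0.394 and Apob 0.135, against Alb at -0.323 and Ttr at -0.594. Within the stellate list Col3a1 gave r = -0.938 and Pdgfrb -0.898, whereas Lrat gave -0.437, Hand2 -0.213, Des -0.0997 and Reln 0.208. Col1a1 was chosen after its values were seen.

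**Figure D3:**
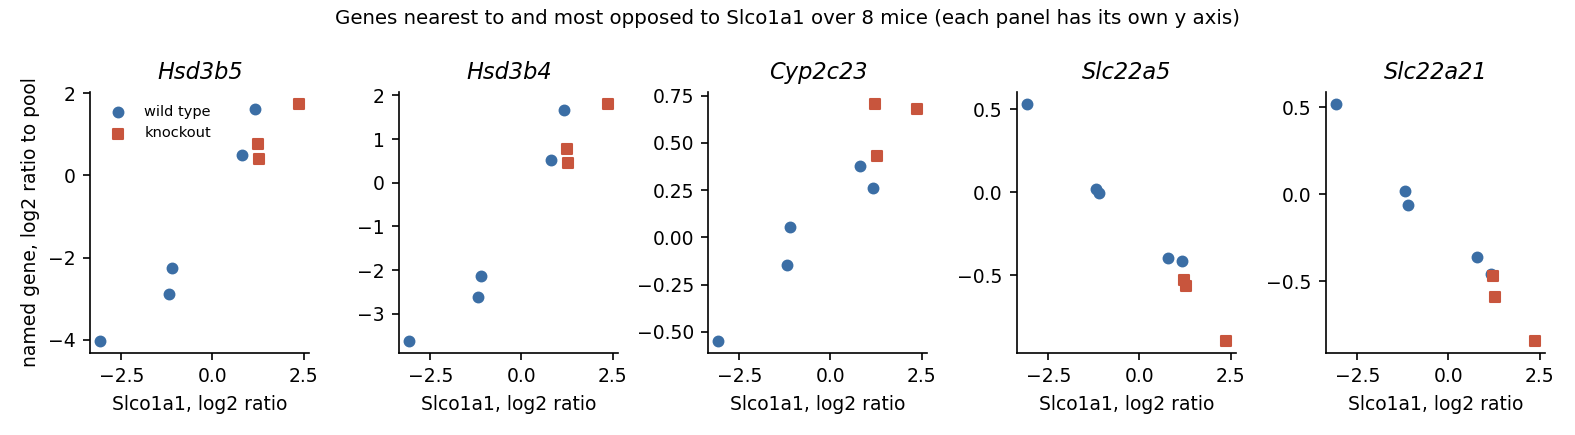
Log2 ratio to the pool of the 3 genes closest to Slco1a1 and the 2 most opposed (y axes, each its own) against that of Slco1a1 (x axis), 1 point per mouse, wild types as blue circles and knockouts as red squares. Hsd3b5 runs from -4.03 to 1.74 and Slc22a5 from 0.53 down to -0.90 along the Slco1a1 axis.

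Because Slco1a1 is male-predominant, other sex-biased liver genes were set beside it. By Pearson's r all 9 measured male-predominant genes correlated positively with Slco1a1 over the 8 mice and 11 of 12 female-predominant genes negatively. Of all named genes 45.5% had a positive r. The signs were less uniform by Spearman's rho. By rank the male-predominant Elovl3 was negative (-0.048). The female-predominant Cyp2a4 and Fmo2 (0.024 each), A1bg (0.071) and Cux2 (0.26) were positive. Of these 21 relations 6 passed after Benjamini-Hochberg adjustment over the 21 by Pearson's r with exact permutation. They were Hsd3b5, the oxysterol hydroxylase Cyp7b1 and the serpin gene Serpina1e on the positive side, and the cytochrome P450 Cyp2b9, the sulphotransferase Sult3a1 and the thioesterase Acot3 on the negative side. None passed by Spearman's rho, where the lowest adjusted p was 0.114. Hsd3b5 was also the top gene of the search above, and the lists were chosen with earlier results of these data known. The adjustment over 21 does not cover that choice, and the permutation exchanged mice across genotypes. These p-values thus describe the mice and are no independent test.

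Cyp7b1 gave r = 0.876 (rho = 0.738, p = 0.00288 and 0.0458, adjusted p = 0.0283 and 0.160, n = 8, exact permutation) and r = 0.677 without mice 14 and 26. Its values were -0.83, -0.19, -0.040, 1.12 and -1.57 in wild types 14, 15, 21, 22 and 26, then -0.21, 0.25 and 1.69 in knockouts 27, 31 and 33. Cyp2b9 gave r = -0.856 (rho = -0.810, p = 0.00667 and 0.0218, adjusted p = 0.0283 and 0.114, n = 8, exact permutation) and r = -0.844 without those mice. It read 0.21, 0.44, -0.74, -2.66 and 0.74 in the wild types and -0.59, -1.75 and -3.58 in the knockouts. Wild-type mice 21 and 22, high in Slco1a1, were thus low in Cyp2b9, and so were all 3 knockouts.

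With the 2 farthest mice left out, all 9 male-predominant genes kept a positive r and 8 of the 11 negative female-predominant genes a negative one, while Fmo2, A1bg and Atp6v0d2 turned positive and Cux2 negative. With knockout signs turned 9 of 9 and 10 of 11 kept their sign, and with values centred within genotype also 9 of 9 and 10 of 11. Between genotypes these lists gave no call: 0 of 9 and 0 of 12 passed adjusted p 0.05 in limma. At an unadjusted p under 0.05 there were 0 and 1, beside 9.28% of all features. The male-predominant list had 5 members higher and 4 lower in the knockout, with a median of 0.074, and the female-predominant list 4 higher and 8 lower with a median of -0.19. With knockout signs turned these medians were 0.089 and 0.34. Hsd3b5 stood at 2.39 ± 1.24, Cyp7b1 at 0.88 ± 0.62 and the repressor Bcl6 at 0.55 ± 0.45, while Cyp3a41a stood at -0.82 ± 0.30, Sult3a1 at -0.31 ± 0.16 and Cyp2b9 at -1.57 ± 0.89.

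Transcripts tied to the sex chromosomes stayed near the pool in every mouse. Xist, transcribed from the inactive X chromosome, ran from -0.11 to 0.36, and the Y-linked Eif2s3y and Uty from -0.37 to 0.36 and from -0.30 to 0.21. These ranges were small beside that of Slco1a1, but without spot brightness a probe without signal cannot be told from a steady transcript. In all 3 genes the value farthest from 0 was that of wild-type mouse 22.

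**Figure D4:**
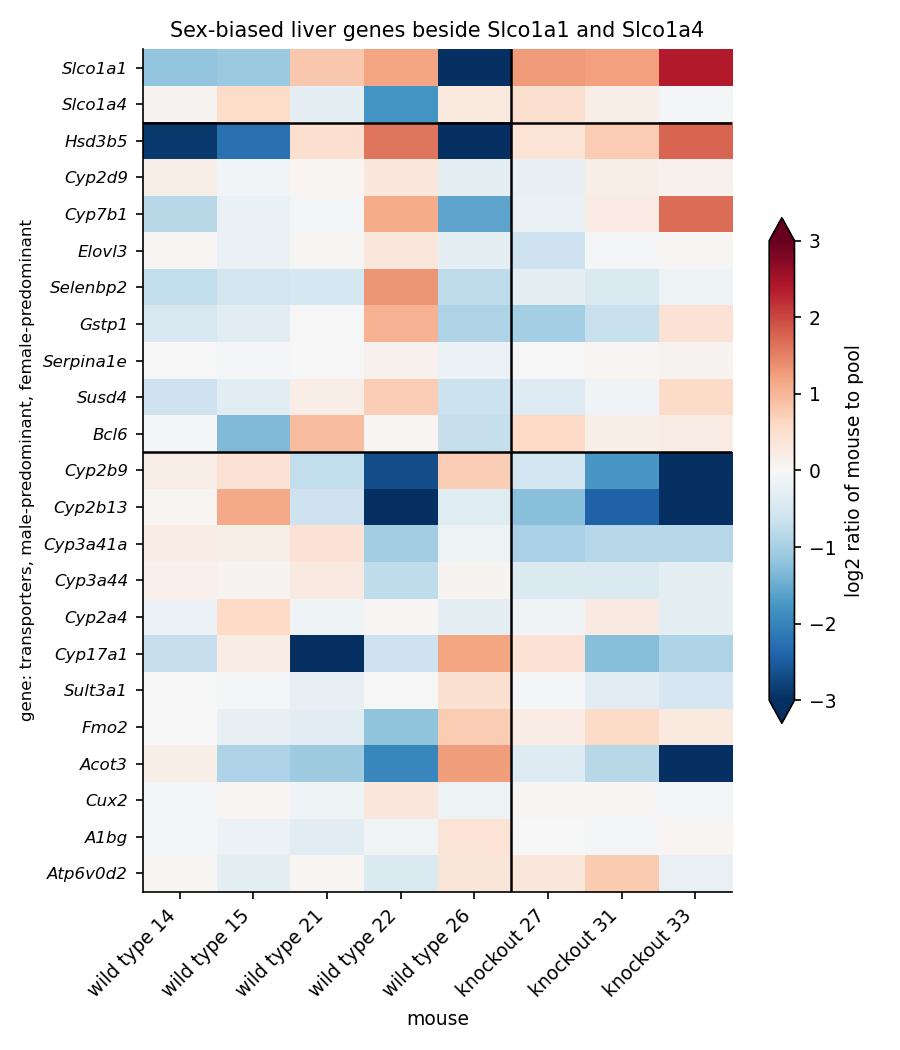
Log2 ratio to the pool (colour, limited to -3 and 3) of Slco1a1 and Slco1a4, 9 male-predominant and 12 female-predominant liver genes (rows, separated by lines) in the 8 mice (columns, knockouts right of the line). Mice 14, 15 and 26 are low in both Slco1a1 and Hsd3b5, and Cyp2b9 is low in mice 22, 31 and 33, at -2.66, -1.75 and -3.58.

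For Slco1a4 the closest genes were the uncharacterised 3110067C02Rik (r = 0.940), the cyclic AMP phosphodiesterase Pde4b (0.918) and the antigen-presenting Mr1 (0.917), with the olfactory receptor Olfr111 (-0.978) and the neuropeptide gene Agrp (-0.978) opposed. Each had its extreme value in wild-type mouse 22, the array of widest spread (SD 0.291). Whether these 5 probes had signal in liver was not checked. Without mice 21 and 22 the first 3 had r of 0.425, 0.589 and 0.231, while Olfr111 and Agrp kept -0.915 and -0.800. For Slco1b2 the closest were the mitochondrial import gene Mtx3 (0.879), 4632427E13Rik (0.855) and the apolipoprotein L gene Apol10a (0.844), with Fam25c (-0.884) and the AMPA receptor auxiliary gene Cnih3 (-0.871) opposed. Without mice 15 and 22 these were 0.682, 0.860, 0.726, -0.849 and -0.807 in that order.

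Slco3a1 was closest to the lysosomal protease gene Ctss (0.927), the interferon-inducible GTPase gene Gbp8 (0.907) and Slfn5 (0.892), and most opposed to the synaptotagmin Syt10 (-0.754) and the urea cycle enzyme Cps1 (-0.741). Without mice 14 and 15 these were 0.815, 0.834, 0.550, -0.583 and -0.710. Both Ctss and Slco3a1 were highest in wild-type mouse 14, while Ctss was lowest in knockout mouse 33 (-0.47) and next to it in wild-type mouse 15 (-0.46). For Slco2b1 the closest were Spsb4 (0.778), Atp6v0d2 (0.722) and the Wnt receptor Fzd7 (0.692), with Slc25a31 (-0.860) and the retinoid-responsive Rarres1 (-0.810) opposed. Without mice 27 and 31 these were 0.018, 0.289, 0.383, -0.913 and -0.615.

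On chromosome 6 the ratios of the 10 nearest measured genes varied less between mice than those of the 3 members. Spot brightness was not used, so a low SD can mean a steady transcript or a probe without signal. The 5 measured genes before Slco1b2 were Capza3, Plekha5, Aebp2, Pde3a and Slco1c1, and the 5 after Slco1a1 were Slco1a6, Slco1a5, Iapp, Recql and Golt1b. Their SDs over the 8 mice lay between 0.030 in Slco1a6 and 0.22 in Recql, against 0.29, 0.75 and 1.80 in Slco1b2, Slco1a4 and Slco1a1. The helicase gene Recql stood at -0.34 ± 0.094 and the chromatin gene Aebp2 at -0.25 ± 0.093 (knockout minus wild type, adjusted p = 0.395 and 0.490 in limma), and the other 8 at sizes up to 0.14. Recql stood at 0.33 and Aebp2 at 0.23 with knockout signs turned. Slco1a5 and Slco1a6, the nearest relatives of Slco1a1 and Slco1a4, kept within -0.082 to 0.23 in every mouse. Probe sequences were not used, so reading of one relative by the probe of another was not tested.

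**Figure D5:**
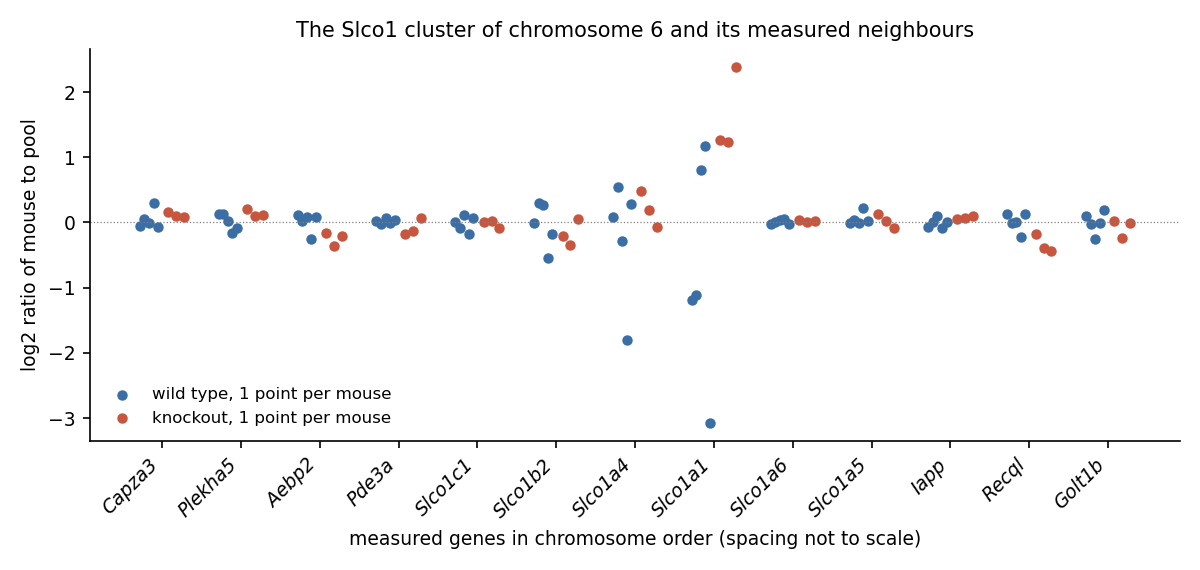
Log2 ratio to the pool (y axis) of the 13 measured genes around the Slco1 cluster in chromosome order (x axis, not to scale), 1 point per mouse, wild types in blue and knockouts in red. The points spread from -3.08 to 2.38 at Slco1a1 and lie close to 0 at the genes on either side of the cluster.

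Among the other 10 Slco genes 6 were higher and 4 lower in the knockout, with a median of 0.040 (2 higher, 8 lower and -0.078 with knockout signs turned). In limma 0 passed adjusted p 0.05 and 1 had an unadjusted p under 0.05, beside 9.28% of all features. The 2 genes Slco2a1 and Slco4c1 were higher without overlap, where 4.35% of all features were. The gene with the unadjusted p under 0.05 was Slco2a1, the prostaglandin transporter gene. It read -0.23, -0.053, 0.13, 0.15 and -0.11 in wild types 14, 15, 21, 22 and 26, then 0.43, 0.29 and 0.64 in knockouts 27, 31 and 33. All knockouts were above all wild types, with a difference of 0.47 ± 0.11 (adjusted p = 0.320), and the exact permutation p was 0.0179, the lowest this design allows. Its 2 probes gave 0.80 ± 0.18 and 0.15 ± 0.057. With knockout signs turned the difference was -0.43. The kidney carrier gene Slco4c1 stood at 0.12 ± 0.051 and the testis gene Slco6b1 at 0.12 ± 0.070.

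A list of other membrane carriers did not follow one direction. Of the 9 measured genes of this carrier list 4 were higher and 5 lower (median -0.055). In limma 0 passed adjusted p 0.05 and 3 had an unadjusted p under 0.05, beside 9.28% of all features. The sodium-dependent bile acid carrier Slc10a1 stood at 0.36 ± 0.092 (adjusted p = 0.367), from -0.019, -0.058, 0.13, -0.088 and 0.12 in the wild types to 0.36, 0.19 and 0.57 in the knockouts, without overlap. The organic cation carrier Slc22a3 stood at -0.72 ± 0.10 (adjusted p = 0.108), with wild types between -0.13 and 0.13 and knockouts at -0.57, -0.63 and -0.97. Slc22a5 stood at -0.61 ± 0.21 (adjusted p = 0.480).

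Of 11 measured export pumps 4 were higher and 7 lower (median -0.14), and 0 passed adjusted p 0.05 in limma (1 unadjusted, beside 9.28% of all features). The phospholipid flippase of bile, Abcb4, stood at -0.48 ± 0.13, and the sterol exporters Abcg8 and Abcg5 at -0.41 ± 0.19 and -0.31 ± 0.16. With knockout signs turned the medians of the carrier list above and of the export list were 0.17 and 0.096.

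Regulators of liver transporters had 3 of 13 members higher and 10 lower (median -0.067, 0 passed adjusted p 0.05 in limma, 1 unadjusted, beside 9.28% of all features). The xenobiotic receptor PXR, Nr1i2, stood at -0.23 ± 0.083, the stress factor gene Nfe2l2 at -0.29 ± 0.18 and the receptor CAR, Nr1i3, at -0.21 ± 0.13. Target genes of PXR and CAR had 3 of 12 higher and 9 lower (median -0.032, 0 adjusted, 2 unadjusted, beside the same 9.28%). The sulphate donor enzyme Papss2 stood at 0.29 ± 0.071, Cyp2b10 at -0.38 ± 0.13 and Cyp3a11 at -0.67 ± 0.30. Turned, these medians were 0.073 and 0.11. Slco1a4, itself a PXR target, gave 0.44 ± 0.48 beside them.

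Acute phase genes stood lower in the knockout for 9 of 12 and higher for 3, with a median of -0.79, and 6 of 12 were lower without overlap, where 2.85% of all features were. None of the 12 passed adjusted p 0.05 in limma (8 unadjusted, beside 9.28% of all features). The siderophore binder Lcn2 stood at -1.79 ± 0.23, the orosomucoid Orm2 at -2.01 ± 0.33 and the serum amyloid Saa2 at -1.39 ± 0.26. Turned, the median was 0.46. Pericentral hepatocyte genes had 4 of 12 higher and 8 lower (median -0.13, turned 0.097, 0 adjusted, 2 unadjusted, beside the same 9.28%). Tbx3 stood at -0.45 ± 0.14, Slc1a4 at -0.60 ± 0.23 and Lgr5 at -0.19 ± 0.098. The part of these genes in the Slco1a1 difference was not tested.

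Markers of the cell types in liver were read as the mean log2 ratio of each list in each mouse. Hepatocyte markers (9 of 10 measured) ran from -0.096 to 0.14 in the wild types and from -0.046 to 0.16 in the knockouts. Bile duct markers (7 of 7) ran from -0.24 to 0.17 and from -0.18 to -0.096, and endothelial markers (8 of 8) from -0.15 to 0.095 and from -0.092 to -0.044. Kupffer cell and macrophage markers (8 of 8) ran from -0.39 to 0.28 and from -0.23 to -0.12, and neutrophil and lymphocyte markers (9 of 9) from -0.098 to 0.095 and from -0.15 to 0.060. Stellate cell markers (7 of 7) spread most in the wild types, from -0.64 to 0.29, and ran from -0.55 to -0.43 in the knockouts. No marker passed adjusted p 0.05 in limma, and beside 9.28% of all features 1 of 9 hepatocyte, 2 of 7 bile duct, 3 of 8 endothelial, 0 of 8 Kupffer, 2 of 7 stellate and 5 of 9 leukocyte markers had an unadjusted p under 0.05. Of the stellate markers 5 were lower and 2 higher in the knockout (median -0.27, turned 0.39), with the collagen genes Col1a1 at -1.29 ± 0.52 and Col3a1 at -0.99 ± 0.39 and Pdgfrb at -0.55 ± 0.24, against Reln at 0.19 ± 0.15 and Des at 0.078 ± 0.070. Of the endothelial markers 5 were higher and 3 lower (median 0.068, turned -0.091): the negative list means of the knockouts came with Lyve1 at -1.005 ± 0.36, while Kdr at 0.21 ± 0.056 was higher without overlap and the list medians of the 3 knockouts were 0.051, 0.12 and 0.071. The leukocyte markers went both ways (5 higher, 4 lower, median 0.12, turned -0.086), with the plasma cell gene Jchain at 0.34 ± 0.12 and the B cell gene Cd79a at 0.13 ± 0.050 against the neutrophil genes Camp at -0.53 ± 0.21, Ngp at -0.46 ± 0.19 and S100a8 at -0.32 ± 0.13. The hepatocyte list had 7 higher and 2 lower (median 0.14, turned -0.16), the bile duct list 2 and 5 (-0.012, turned 0.029) and the Kupffer list 1 and 7 (-0.16, turned 0.20). In bulk tissue fewer cells of a type and less RNA per cell cannot be told apart, and the part of cell makeup in the transporter values was not tested. Ratios hold no zero level, so absent markers could not be told.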

How the data were processed

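Liver total RNA of 5 wild-type mice and 3 littermates labelled as Me1 knockouts was compared on 2-colour arrays with pooled RNA of 5 wild types, with a dye swap, per the labels and the series' design text. Each mouse has 1 column. How swapped arrays were merged and what correction was applied is not given in the sources used. The deposited values were read as log10 ratios, a base inferred from the values and not settled by them, and were multiplied to log2. Symbols came from the platform annotation; 16574 probes had a current symbol, 6594 were updated by a synonym through the GRCm38.p6 gene table, 115 were kept as listed and 16273 had none. Probes of 1 symbol were averaged, which gave 19896 genes and, with unnamed probes, 36169 features. Promoter windows came from RefSeq (GRCm38.p6), with 4 of 5 members matched. Knockout and wild type were compared with limma 3.58.1 (R 4.3.3), without array weights; p-values were adjusted over the 36169 features (Benjamini-Hochberg). The code of the fit was run on simulated independent normal noise with added shifts. That noise had neither the unequal spread nor the correlation of these arrays, so it does not check the results here. The mice are separate animals, and their number limits the precision.

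By plan the named genes were the members, the 3 highest and 2 lowest by r for each member, and 5 neighbours on each side. From each list the plan took up to 3 genes with the smallest p. Beyond it, further genes of the sex-biased, hepatocyte, stellate and leukocyte lists are named. The top genes of the bile duct and Kupffer lists, and some of the endothelial list, are not. The members and lists were chosen with earlier results of these data known. Tried were median centring, quantile and scale normalization, array weights, turned knockout arrays, fewer features, single probes and each mouse left out.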

Additional observations from a re-analysis of the deposited data

How the results depend on the processing

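No member passed adjusted p 0.05 in limma in any of 81 refits. Turning the sign of the knockout arrays gave the 4 reversals of a member's difference, to -0.95 for Slco1a1, 0.19 for Slco1b2, -0.044 for Slco2b1 and 0.17 for Slco3a1. Slco1a4 kept its sign at 0.026. The direction of those 4 members thus depends on which way the knockout arrays run. With 1 mouse left out the differences ran from 1.71 to 2.78 for Slco1a1, 0.046 to 0.63 for Slco1a4, -0.26 to -0.041 for Slco1b2, 0.029 to 0.10 for Slco2b1 and -0.19 to -0.055 for Slco3a1. The lowest adjusted p of Slco1a1, 0.133, came with array weights. Of all features 10 passed; 5 passed with scale normalization, 207 with array weights, 22 without the least variable features, 19 without both widest arrays, and 6 (without wild-type mouse 14) to 65 (without wild-type mouse 22) with 1 mouse left out. The cause was not tested. Slco2b1 fell out with the least variable features and has no value there. No pair of members passed adjusted p 0.05 as deposited, median-centred, quantile-normalized or turned. No paired analysis was possible because the mouse numbers are not shared between genotypes. Spot brightness was not used. The wild-type SDs with single mice left out, the Slco1a4 and Slco1b2 correlation without other mice and the turning of single wild-type arrays were chosen after seeing the data; turning mouse 22 gave -0.28 for Slco1a4.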
